A study of Mus musculus with 8 samples.

Results

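Oligodendrocytes are the glial cells that wrap axons of the central nervous system in myelin, and 36 genes that mark their lineage, of 55536 in the count table, were followed in adult mouse frontal cortex. The genes were taken by symbol from a list drawn up with earlier results of these data known, and every one had a row in the table. By stage the list held 2 precursor genes, 3 genes of differentiating cells, 5 transcription factors of the lineage and 26 genes of mature cells. The mature genes were 14 genes for proteins of myelin or its paranodes, 6 for lipid and metabolic enzymes and 6 others.

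There were 4 libraries of WT mice and 4 of HAR123-KO mice, all 8 weeks old, made from total RNA after depletion of ribosomal RNA. HAR123 is a human accelerated region, a conserved element whose sequence changed quickly in human evolution, and it acts as an enhancer within the Smg6 locus. The mouse element was deleted with CRISPR-Cas9 in C57BL/6J embryos, so HAR123-KO mice lack it throughout the body and not in oligodendrocytes alone, and the strain was then backcrossed to C57BL/6J; the study's WT controls were littermates. The labels do not say which animal gave which library, how many founders the line has, or whether a library is a pool, so p-values measure the spread between these libraries, which may in part be technical.

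New oligodendrocytes arise from precursors that carry the PDGF receptor Pdgfra and the NG2 proteoglycan Cspg4. They pass through a short stage marked by Gpr17, Enpp6 and Bcas1, under the control of Olig1, Olig2, Sox10 and Myrf. They then make large amounts of myelin proteins such as Mbp, and of enzymes for the lipids of the sheath. In the cortex of a young adult mouse, myelin is still being added, and the white matter below the cortex holds far more of it than the grey matter.

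Between 13528251 and 17051001 counts were in the table per library. Gm42418, which overlaps ribosomal RNA sequence, took 56.8% to 58.0% of them in WT and 55.1% to 57.4% in HAR123-KO. The mitochondrial ribosomal RNAs took 9.24% to 9.69% in WT and 10.04% to 10.9% in HAR123-KO, higher in every HAR123-KO library, and their part in the results was not tested. Nuclear protein-coding genes received 2786320 to 3732172 counts per library. The 36 genes together held 0.544% to 0.551% of these protein-coding counts in the WT libraries and 0.598% to 0.603% in the HAR123-KO libraries, ranges that did not overlap. Values below are normalized counts, the counts divided by a size factor for each library, and ± is the SD over 4 libraries for a mean and the SE for a log2 fold change.

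A group of abundant myelin genes was higher in HAR123-KO cortex, by small amounts, while other myelin genes of similar abundance were not called. The myelin protein genes Mbp, Cnp and Cldn11 and the lipid-enzyme gene Enpp2 rose by 1.11-fold to 1.35-fold and passed an adjusted p of 0.05 in DESeq2's Wald test. No gene of the 36 was lower at that threshold (by edgeR's quasi-likelihood test also 4 higher and 0 lower). Of 35 members with an adjusted p, 4 were thus called, where 1.69% of all 12758 genes tested were called in either direction and 0.972% were called higher. The called members are among the most abundant, and abundant genes are easier to call: of 24 members whose mean reached 100 normalized counts, 4 were called higher, beside 1.58% of all such genes. In this fit none of the 36 was past the study's limit for this tissue, an adjusted p under 0.05 with an absolute log2 fold change over 0.5, which 0.298% of genes were. With genes under 10 counts summed over all libraries left out before the fit, an alternative chosen after seeing the data, 1 member, Klk6, was past it. In bulk tissue, more cells of a type, more RNA per cell and a different make-up of the dissected piece cannot be told apart. Markers of other cell types also differed between the genotypes, as given below. Among these were markers of the choroid plexus, which also makes Enpp2. Their part was not tested.

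The lean towards higher values went beyond the 4 called genes. Among the 35 members whose mean reached 10 normalized counts, 26 had a log2 fold change above 0 (74.3%) and the median was 0.12, beside 49.6% and -0.0010 over all genes with that mean. Without HAR123-KO replicate 4 the median of the members was 0.065. That library also differed from the other HAR123-KO libraries in RNA composition, with 57.4% of its counts on Gm42418 (the others 55.1% to 55.7%) and 10.04% on mitochondrial ribosomal RNAs (the others 10.8% to 10.9%), and the part of this in the median was not tested. In 9 of the 35 the 4 HAR123-KO libraries were all above the 4 WT libraries, and in 0 all below, where 3.77% of all genes with that mean were wholly higher and 3.44% wholly lower. These 9 were Mbp, Cnp, Cldn11, Enpp2, Tspan2, Cntn2, Fa2h, Qdpr and Plekhh1. An unadjusted p under 0.05 was reached by 10 of the 35, all higher, beside 4.2% of all genes with that mean that were higher at this p. No test was made on the list as a whole.

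**Figure D1:**
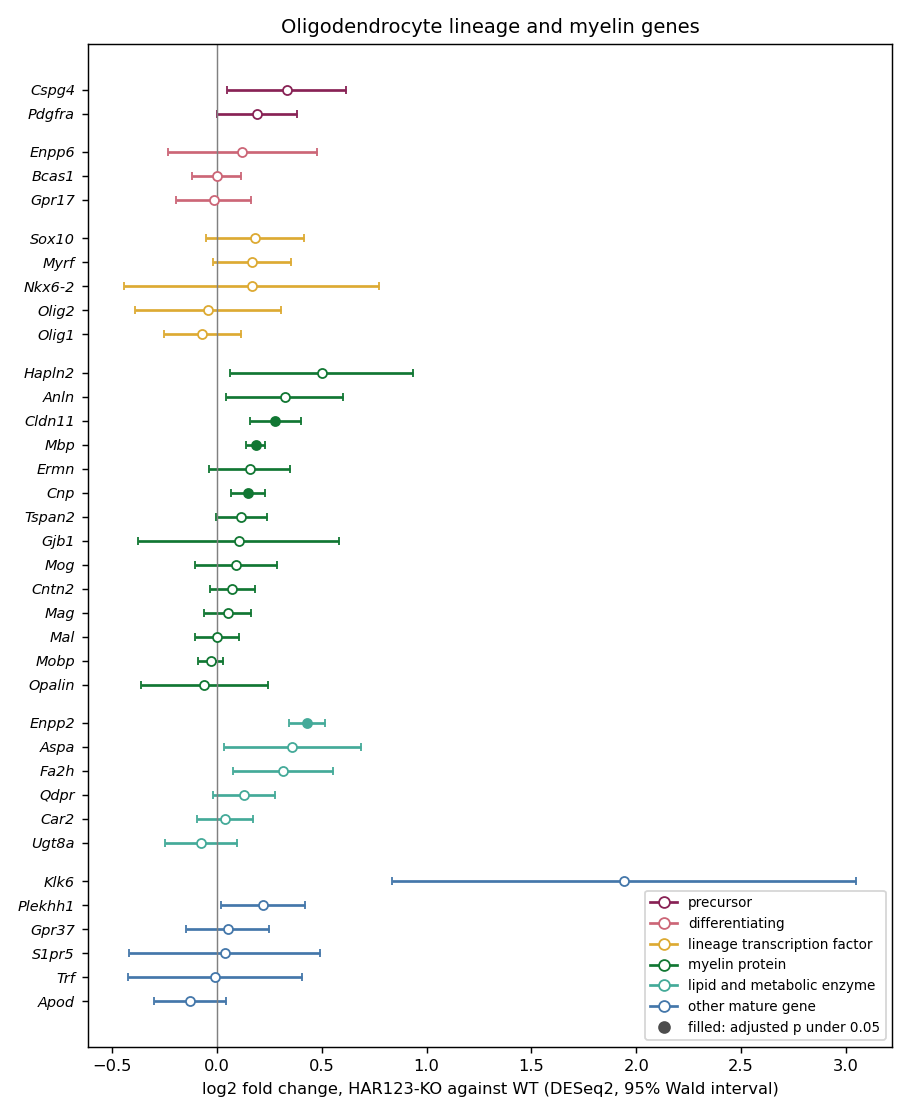
Log2 fold change of each of the 36 genes, HAR123-KO against WT, with its 95% Wald interval from DESeq2, grouped by role; filled points have an adjusted p under 0.05. The filled points are Mbp, Cnp, Cldn11 and Enpp2, all right of 0, while the intervals of Mobp, Mal, Bcas1 and Gpr17 lie around 0.

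The precursor genes came first in the lineage and leaned higher without passing the test. Pdgfra, the receptor through which PDGF drives precursors to divide, stood at 152, 223, 210.1 and 182 normalized counts in WT replicates 1 to 4 and at 229, 231, 213 and 207 in HAR123-KO replicates 1 to 4. WT replicate 1 was the lowest of the 8, and WT replicates 2 and 3 lay among the HAR123-KO values. Its log2 fold change was 0.19 ± 0.098 (adjusted p = 0.572, DESeq2), and 0.10 without WT replicate 1.

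Cspg4, which encodes the NG2 proteoglycan on the precursor surface and is also made by pericytes, had 78.8, 63.8, 72.9 and 93.1 in WT and 96.2, 99.8, 109 and 80.8 in HAR123-KO. WT replicate 4 and HAR123-KO replicate 4 overlapped with the other genotype. It had a log2 fold change of 0.33 ± 0.15, an unadjusted DESeq2 p of 0.0216 and an adjusted p of 0.404. The sum of both genes ran from 231 to 287 in WT and 288 to 331 in HAR123-KO, ranges that nearly touched.

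Genes of the differentiating stage overlapped between the genotypes, and none was called. Gpr17, a receptor made only briefly as precursors commit to differentiation, held 213, 195, 198 and 198 normalized counts in the WT libraries and 199.7, 199, 202 and 194 in the HAR123-KO libraries. All 8 values lay close together, and the log2 fold change was -0.014 ± 0.091 (adjusted p = 0.995, DESeq2). Bcas1, a marker of newly forming oligodendrocytes, had 489, 499, 482 and 456 in WT and 488, 499, 457 and 481 in HAR123-KO. The 2 genotypes covered almost the same range, with a log2 fold change of -0.0017 ± 0.060 (adjusted p = 0.999, DESeq2) and a 95% interval from -0.12 to 0.12. Of its exon bases, 12.6% are shared with the antisense genes Bcas1os1 and Bcas1os2.

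Enpp6, a choline phosphodiesterase of newly formed oligodendrocytes, was less abundant and more scattered. Its counts were 52.9, 49.4, 56.8 and 48.1 in WT and 53.2, 42.8, 65.1 and 64.9 in HAR123-KO, where replicates 3 and 4 were above all WT libraries and replicate 2 below all of them. This gave a log2 fold change of 0.12 ± 0.18 (adjusted p = 0.958, DESeq2), which ran from 0.040 to 0.24 when 1 library was left out. The summed counts of the 3 genes were 702 to 754 in WT and 725 to 741 in HAR123-KO. Whether precursor and differentiating genes differ from each other in their response was not tested.

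The 5 transcription factors were not called in either direction. Sox10, which keeps the lineage's identity and switches on myelin genes, was 117, 97.8, 114 and 123.02 in WT and 135, 126, 133 and 119 in HAR123-KO, with 1 WT library inside the HAR123-KO range. Its log2 fold change was 0.18 ± 0.12 (adjusted p = 0.744, DESeq2), or 0.12 without WT replicate 2. Myrf, the factor that oligodendrocytes need to make and keep myelin, was 190.3, 221, 226 and 189 in WT and 272, 222, 232 and 206 in HAR123-KO. Both ranges overlapped, with HAR123-KO replicate 1 the highest of all, and the log2 fold change was 0.17 ± 0.094 (adjusted p = 0.643, DESeq2), or 0.087 without HAR123-KO replicate 1.

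The paired bHLH factors Olig1 and Olig2, neighbours on chromosome 16, also overlapped between the genotypes. Olig1 had 252, 216, 241 and 211 normalized counts in WT and 190.4, 201, 233 and 253 in HAR123-KO, the latter holding both the lowest and the highest of the 8. Olig2, needed to form precursors at all, had 72.1, 55.6, 51.7 and 48.1 in WT and 49.1, 59.9, 50.2 and 60.6 in HAR123-KO, and only WT replicate 1 stood away from the rest. Log2 fold changes were -0.069 ± 0.094 for Olig1 and -0.044 ± 0.18 for Olig2 (adjusted p = 0.950 and 0.993, DESeq2). That of Olig1 ran from -0.14 to -0.0087 when 1 library was left out. Nkx6-2, a homeobox factor of mature oligodendrocytes, was the least abundant factor by count, at 13.6 to 21.6 in WT and 14.3 to 23.4 in HAR123-KO.

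Mbp (ENSMUSG00000041607, chromosome 18, 82475146 to 82585637, plus strand), the basic protein that holds the inner membrane faces of myelin together, was the most abundant of the 36. Per kilobase of exon it reached 772 ± 19.97 normalized counts in WT, more than Mobp at 353, Cnp at 269 and Cldn11 at 224 per kilobase. Its libraries held 6320.4, 6578, 6532 and 6729.9 normalized counts in WT and 7337, 7425, 7549 and 7424 in HAR123-KO. All HAR123-KO libraries were above all WT libraries, and each genotype kept to a narrow range. Mbp rose 1.14-fold, a log2 fold change of 0.18 ± 0.023 (adjusted p = 2.27e-12 by DESeq2 and 1.20e-05 by edgeR). The Mbp locus also makes Golli transcripts, which neurons and immune cells use and which share exons with myelin Mbp, and gene counts do not separate them.

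Cldn11 (ENSMUSG00000037625, chromosome 3, 31149920 to 31164324, plus strand), the claudin that seals the layers of the myelin sheath, rose 1.22-fold. Its counts went from 386, 439.6, 427 and 425 in WT to 485, 523, 497 and 535 in HAR123-KO, with a gap between the highest WT and the lowest HAR123-KO library. The log2 fold change was 0.28 ± 0.062 (adjusted p = 9.29e-04, DESeq2).

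Cnp (ENSMUSG00000006782, chromosome 11, 100574904 to 100591729, plus strand), a phosphodiesterase that keeps cytoplasmic channels open inside myelin, rose by less. WT libraries held 996, 953, 963 and 996 normalized counts and HAR123-KO libraries 1108, 1095, 1074 and 1049, again with no overlap. The log2 fold change of 0.15 ± 0.042 passed with an adjusted p of 0.0286 in DESeq2 and 0.0201 in edgeR. This call is the least firm of the 4. It held in 9 of 18 alternative fits and was lost, among others, with an adjusted p of 0.0630, without the independent filter, with a minimum of 10 counts in 4 libraries (0.0649), and when any one of WT or HAR123-KO replicates 1, 2 or 3 was left out (0.0913 to 0.256). Its log2 fold change stayed between 0.14 and 0.19 in all 18. About 4.23% of its exon bases are also in exons of Dnajc7.

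Mobp (ENSMUSG00000032517, chromosome 9, 120149707 to 120181484, plus strand), the second most abundant of the 36, was not called. Its libraries held 2437, 2380.2, 2408 and 2444 normalized counts in WT and 2336, 2417, 2359 and 2357 in HAR123-KO, overlapping ranges. The log2 fold change was -0.030 ± 0.030 (adjusted p = 0.904, DESeq2), or 0.0091 with library totals as size factors (adjusted p = 0.978, DESeq2). In the fit with median-of-ratios factors, its 95% interval, -0.088 to 0.029, ended below that of Mbp. Mobp encodes a small basic protein of compact myelin.

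Mag, an adhesion protein of the innermost myelin layer, overlapped between the genotypes as well. It had 563, 542, 547 and 481 in WT and 564, 552, 547 and 549 in HAR123-KO, and 3 WT libraries lay around the HAR123-KO values while WT replicate 4 was lower. Its log2 fold change was 0.051 ± 0.058 (adjusted p = 0.922, DESeq2), and 0.0061 without WT replicate 4. Mog, a surface protein of the outermost layer and a late marker of maturation, had 164, 164, 163 and 153 in WT and 178, 177, 163 and 169 in HAR123-KO, with a log2 fold change of 0.092 ± 0.10 (adjusted p = 0.917, DESeq2). HAR123-KO replicate 3 lay within the WT range.

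Across the 36, the 95% intervals of 10 genes ended below the log2 fold change of Mbp. These were Mobp, Mal, Mag, Cntn2, Gpr17, Bcas1, Olig1, Ugt8a, Car2 and Apod. The comparison leaves out the error of Mbp itself, whose interval was 0.14 to 0.23. The intervals of Mag, Cntn2, Gpr17 and Car2 overlapped it. Mal, a raft protein of myelin membranes, ran from 585 to 632 in WT and 600.0 to 624 in HAR123-KO, and its interval was -0.10 to 0.10. Among the other myelin protein genes, Hapln2, a link protein of nodes of Ranvier, had the highest log2 fold change at 0.50 ± 0.22, with 28.8 to 34.9 in WT and 32.6 to 58.5 in HAR123-KO (adjusted p = 0.432, DESeq2). Anln, which anchors septins in myelin, followed with 0.32 ± 0.14 (adjusted p = 0.416, DESeq2). Tspan2, Cntn2, Ermn, Gjb1 and Opalin had log2 fold changes from -0.059 for Opalin to 0.16 for Ermn and none was called.

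Ratios of raw counts within a library do not depend on any scaling between libraries, and they showed the same unequal change. The pairs were picked after the values had been seen, so they are given as a description. The ratio of Mbp to Mobp was 2.59 to 2.76 in WT and 3.07 to 3.20 in HAR123-KO. The ratio of Cnp to Mobp was 0.4001 to 0.409 in WT and 0.445 to 0.474 in HAR123-KO, and that of Cldn11 to Mobp was 0.158 to 0.185 in WT and 0.208 to 0.227 in HAR123-KO. These sets of libraries were apart. By contrast, Mal to Mobp was 0.240 to 0.266 in WT and 0.248 to 0.265 in HAR123-KO, overlapping ranges. The difference between Mbp and Mobp thus did not depend on the size factors.

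**Figure D2:**
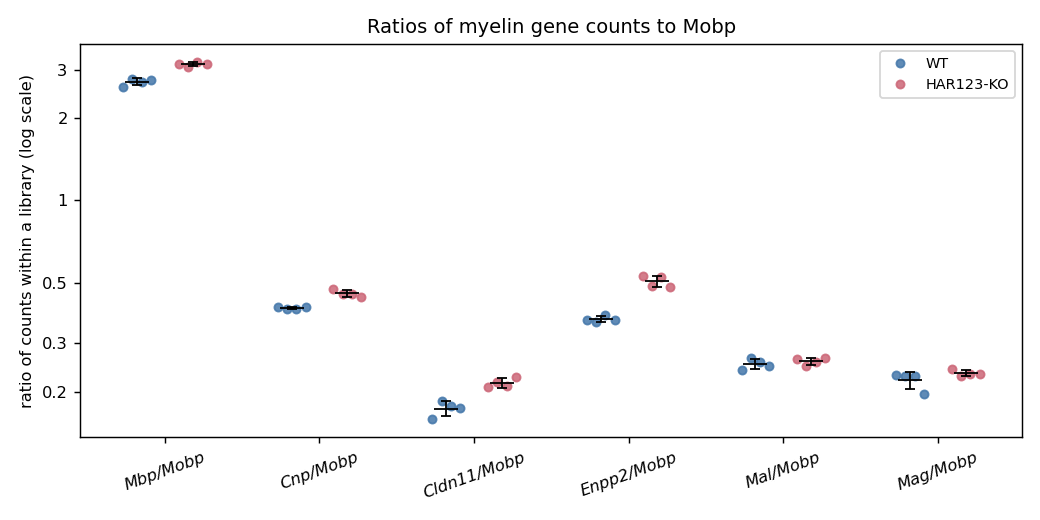
Ratio of the counts of each gene to those of Mobp within a library, on a log axis, for 4 WT and 4 HAR123-KO libraries, with mean and SD. Ratios for Mbp, Cnp, Cldn11 and Enpp2 are higher in every HAR123-KO library than in any WT library, and those for Mal and Mag overlap.

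Stretches upstream of Cnp, Cldn11 and Mobp are printed because the first 2 rose and the third, also an abundant myelin gene, did not. Each holds 200 bases, from 250 to 51 bases before the RefSeq start on GRCm38.p6, all on the plus strand (chr11:100574689-100574888 for Cnp, chr3:31149670-31149869 for Cldn11 and chr9:120149492-120149691 for Mobp), and none contains an annotated exon. Capitals mark ACAAAG or its reverse complement CTTTGT, the core that SOX factors such as Sox10 bind, and CTGGCAC or its reverse complement GTGCCAG, a motif of Myrf.
Cnp: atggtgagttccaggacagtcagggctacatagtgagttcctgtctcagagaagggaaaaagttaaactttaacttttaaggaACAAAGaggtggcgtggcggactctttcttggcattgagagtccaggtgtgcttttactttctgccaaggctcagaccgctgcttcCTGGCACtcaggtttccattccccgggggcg
Cldn11: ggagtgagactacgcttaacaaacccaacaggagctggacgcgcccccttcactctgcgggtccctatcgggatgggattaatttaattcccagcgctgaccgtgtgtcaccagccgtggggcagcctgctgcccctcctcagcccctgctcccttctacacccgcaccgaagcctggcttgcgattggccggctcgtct
Mobp: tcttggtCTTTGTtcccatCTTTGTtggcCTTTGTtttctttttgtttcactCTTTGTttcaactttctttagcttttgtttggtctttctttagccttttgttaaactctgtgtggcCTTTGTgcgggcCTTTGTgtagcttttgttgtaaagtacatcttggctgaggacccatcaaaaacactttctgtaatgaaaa

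The Mobp stretch held 6 SOX cores, the Cnp stretch 1 SOX core and 1 Myrf motif, and the Cldn11 stretch none of either. Over 32851 RefSeq promoter windows of the same length, 13.6% held a SOX core, 5 held 4 or more, and 3.35% held the Myrf motif. The motifs do not overlap each other, and both strands were searched. RefSeq gave 33 windows for 26 of the 36 genes, some genes having several. A SOX core was in 9 of these windows, in 7 genes (Apod, Cnp, Gjb1, Klk6, Mag, Mobp and Opalin), and a Myrf motif in 3, in 3 genes (Cnp, Hapln2 and Mag). These letters describe the windows and are not evidence of binding.

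Enpp2 (ENSMUSG00000022425, chromosome 15, 54838901 to 54952892, minus strand), which encodes autotaxin, the enzyme that makes lysophosphatidic acid, had the largest log2 fold change of the called members. The WT libraries held 893, 858, 916 and 890.1 normalized counts and the HAR123-KO libraries 1231, 1179, 1239 and 1141, with every HAR123-KO library far above every WT library. Enpp2 rose 1.35-fold, a log2 fold change of 0.43 ± 0.043 (adjusted p = 5.41e-20 by DESeq2 and 2.46e-11 by edgeR), and was called in all 18 alternative fits. Gm26684 shares 5.97% of its exon bases. Autotaxin is also made by the choroid plexus epithelium, which makes the fluid of the ventricles. Choroid plexus markers moved the same way: Ttr, the transthyretin that this epithelium makes in bulk, was 68.2 ± 5.15 in WT and 641 ± 19.4 in HAR123-KO, a log2 fold change of 3.24 ± 0.10. The study's text singles out Ttr on these libraries, so its direction is not independent evidence. The ratio of Enpp2 to Ttr counts was 11.6 to 14.6 in WT and 1.78 to 2.01 in HAR123-KO. Enpp2 was higher by 308 normalized counts on average and Ttr by 573. The part of choroid plexus RNA in the rise of Enpp2 was not tested.

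Of the other 5 enzyme genes, 4 had log2 fold changes above 0, with wider errors, and none was called. Aspa, which splits N-acetylaspartate to give acetate for lipid synthesis, ran from 48.4 to 65.2 in WT and from 58.4 to 86.5 in HAR123-KO (log2 fold change 0.36 ± 0.17). Fa2h, which hydroxylates the fatty acids of myelin galactolipids, was at 97.9 to 110.1 in WT and 118 to 146 in HAR123-KO, without overlap (log2 fold change 0.32 ± 0.12). Their adjusted p was 0.467 and 0.260 in DESeq2. Ugt8a, which makes galactosylceramide in the same pathway as Fa2h, was 214 to 247 in WT and 208 to 228 in HAR123-KO. Its log2 fold change was -0.076 ± 0.088, and -0.11 to -0.033 when 1 library was left out. Qdpr, a reductase of tetrahydrobiopterin with 18.6% of its exon bases shared with Gm42413, and Car2, a carbonic anhydrase, had log2 fold changes of 0.13 ± 0.075 and 0.038 ± 0.068.

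Klk6 (ENSMUSG00000050063, chromosome 7, 43824499 to 43832030, plus strand), a secreted protease of mature oligodendrocytes singled out in the study's own text, had the largest relative difference of the 36 at the lowest level. It had 3.38, 4.12, 2.54 and 2.14 normalized counts in WT and 9.21, 11.4, 15.0 and 10.6 in HAR123-KO, every HAR123-KO library being above every WT library. These rest on 3, 4, 3 and 2 raw counts in WT and 9, 12, 17 and 10 in HAR123-KO. The log2 fold change was 1.94 ± 0.56, with an unadjusted DESeq2 p of 5.80e-04. DESeq2's independent filter, which stopped at a mean of 17.6, gave it no adjusted p, and without the filter the adjusted p was 0.0805, so it was not called. Over the 6 alternatives that gave one, the adjusted p ran from 0.0439 to 1, and the call depended on which low genes entered the fit. It was called, with an adjusted p of 0.0439 in DESeq2, where genes under 10 counts summed over all libraries were left out, and in none of the others. Since the study had picked Klk6 on these libraries, the pattern is not independent of that choice.

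The remaining mature genes were not called. Plekhh1, of unclear function in myelin, was 144 to 154 in WT and 165 to 196 in HAR123-KO (log2 fold change 0.22 ± 0.10, adjusted p = 0.470, DESeq2), with 14.8% of its exon bases shared with Pigh. Apod, a lipid-binding lipocalin, had the lowest log2 fold change of the 36 at -0.13 ± 0.087, which ran from -0.17 to -0.047 when 1 library was left out. The receptors Gpr37 and S1pr5 were at 0.053 ± 0.10 and 0.037 ± 0.23. Trf, the iron carrier transferrin, was listed at only 36.03 to 38.5 in WT and 34.0 to 39.9 in HAR123-KO, but 63.5% of its exon bases are also in exons of Gm20425, which has 0 counts in all 8 libraries. How reads in shared bases were counted is not stated, so the level of Trf is uncertain.

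**Figure D3:**
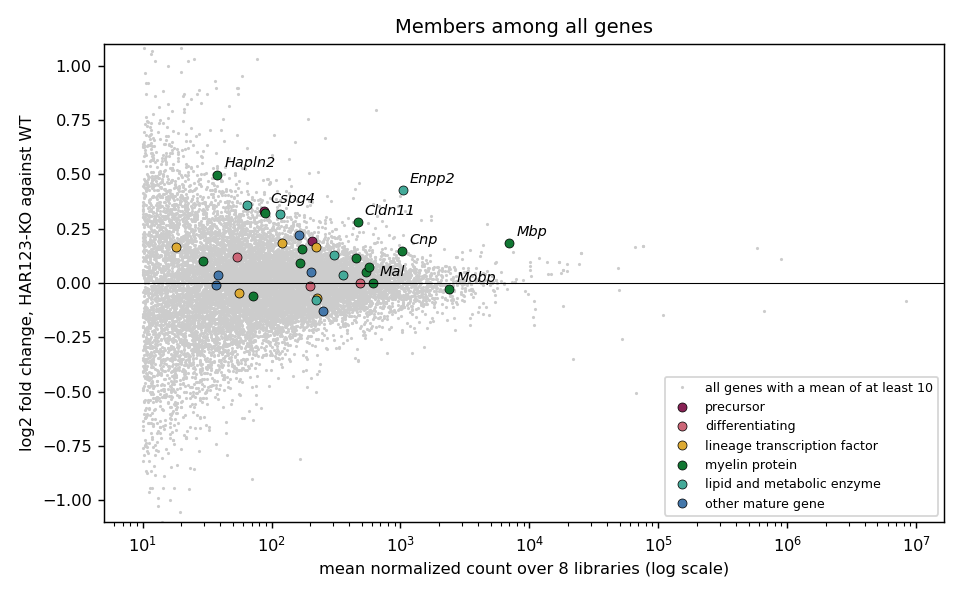
Log2 fold change against mean normalized count (log axis) for all genes with a mean of at least 10 (grey; genes beyond ±1.1 are not drawn) and for the members by role except Klk6, whose mean is lower. Enpp2, Cldn11, Cnp and Mbp lie at the upper edge of the grey cloud for their abundance, and Mobp and Mal lie near 0.

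The members spanned a wide range of abundance in WT, from 772 normalized counts per kilobase of exon for Mbp to 2.01 for Klk6. Mobp, Cnp and Cldn11 followed Mbp, and the libraries of Cldn11 overlapped with those of Mal, next at 219.8 per kilobase. Qdpr, Enpp2 and Car2 came next with 162, 154 and 146 per kilobase, Qdpr and Enpp2 overlapping. In HAR123-KO the level of Enpp2 was 207 per kilobase, above Qdpr at 178. Olig1 was the most abundant transcription factor at 106 per kilobase, and the precursor genes Pdgfra and Cspg4 were at 19.1 and 6.47.

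By group, the median log2 fold change was 0.26 over the 2 precursor genes, -0.0017 over the 3 genes of differentiating cells and 0.17 over the 5 factors. It was 0.11 over the 14 myelin protein genes, of which 3 were called higher, and 0.22 over the 6 enzyme genes, of which 1 was called. The other mature genes had a median of 0.037 over the 5 of 6 with a mean of at least 10, with 3 above and 2 below 0, and none was called. Over the 25 mature genes with a mean of at least 10 it was 0.10. The summed counts of the 26 mature genes were 15429.5 to 15755 in WT and 17085 to 17286 in HAR123-KO. Since Mbp makes up a large share of any such sum, the sum over all members was also taken without it, at 10589 to 10833 in WT and 11428 to 11554 in HAR123-KO, again with no overlap.

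**Figure D4:**
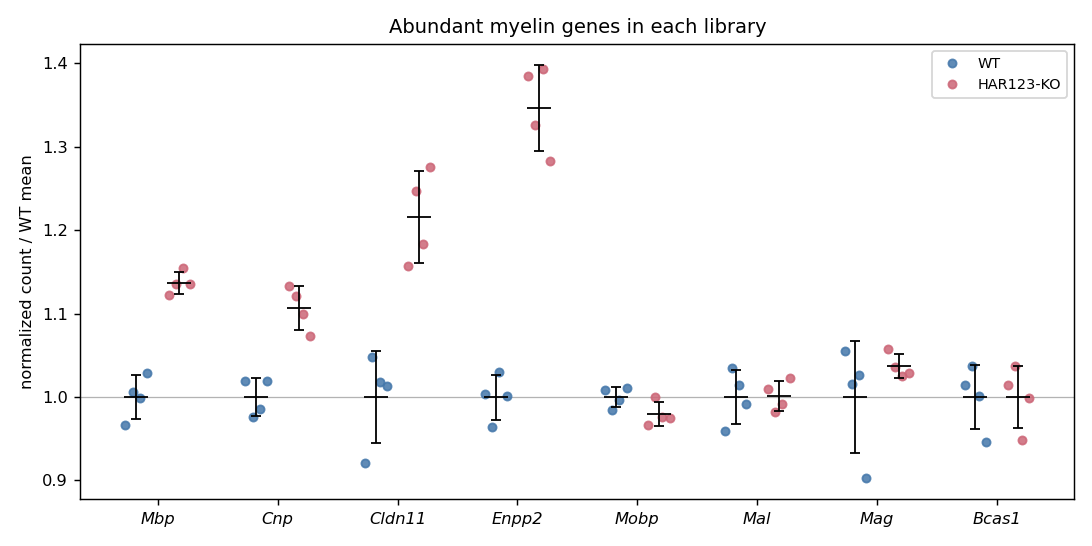
Normalized count in each library divided by the WT mean, for 8 abundant myelin and oligodendrocyte genes, with mean and SD over 4 libraries. Mbp, Cnp, Cldn11 and Enpp2 are higher in all HAR123-KO libraries, and Mobp, Mal, Mag and Bcas1 lie near 1 in both genotypes.

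A further list of 41 oligodendrocyte genes outside the 36 was also examined. Of 37 with an adjusted p, 1 was called higher and 0 lower, beside the background of 0.972% for higher calls, and the median log2 fold change was 0.090. All HAR123-KO libraries were above all WT libraries for 2 of the 39 whose mean reached 10 (5.13%) and below them for 1 (2.56%), beside a background of 3.77% and 3.44%. Of these 39, 29 had a log2 fold change above 0 (74.4%, beside 49.6% of all genes with that mean). At an unadjusted p under 0.05, 4 of them were higher, beside the 4.2% above, and 1 lower, beside 575 of all 14464 genes with that mean. The summed counts of the 41 were 4649.7 to 4883 in WT and 4938 to 5054 in HAR123-KO, with no overlap. The edgeR test also called the precursor gene Cacng4 higher (adjusted p = 0.0462). The gene called by DESeq2 was Padi2.

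Padi2, a peptidylarginine deiminase that citrullinates Mbp protein and that the study's text singles out, rose from 91.2, 84.4, 67.8 and 78.1 in WT to 133, 114, 130.3 and 102 in HAR123-KO, with no overlap. As the study picked it on these libraries, its direction is not independent evidence. Its log2 fold change was 0.59 ± 0.14 (adjusted p = 0.00181, DESeq2). The medians by stage were 0.15 over the 8 precursor genes, 0.0042 over the 5 genes of differentiating cells with a mean of at least 10, and 0.11 over the 26 mature genes with that mean.

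Markers of other cell types also moved between the genotypes, and their part in the results above was not tested. Choroid plexus markers (12 genes, 5 of them with a mean of at least 10) summed to 94.6 to 114 in WT and 764 to 789 in HAR123-KO. Ttr made up most of this sum, at a mean of 68.2 in WT and 641 in HAR123-KO. The sums stayed apart whichever single gene was left out. Markers of striatal projection neurons, which lie beneath the frontal cortex and next to white matter, summed to 4589 to 4755 in WT and 6092 to 6264 in HAR123-KO. Of these 12 striatal genes, 8 were called higher and all had a log2 fold change above 0, with Drd1 at 0.38 ± 0.098 and Drd2, also singled out there, at 0.65 ± 0.11. The striatal sum was already 4589 or more in every WT library, so none of the libraries lacked these transcripts. The study had picked Ttr, the choroid plexus gene Clic6 and Drd2, among others of both lists, on these libraries. The direction of these sums is thus not independent of that choice.

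Astrocyte markers summed to 24874 to 25602 in WT and 23159.5 to 23771 in HAR123-KO, with 3 of 12 called lower (Slc1a2, Slc1a3 and Gja1), while Gfap was at 0.16 ± 0.081 and Aqp4 at -0.15 ± 0.071. Slc1a2 made up most of the astrocyte sum, and without it the other 11 genes summed to 6189 to 6496 in WT and 5877 to 6044 in HAR123-KO. Endothelial markers were at 577 to 629.5 in WT and 496 to 519 in HAR123-KO, with 0 of 12 called by DESeq2 (4 lower at an unadjusted p under 0.05 and 1 called by edgeR) and Cldn5 at -0.56 ± 0.28. Microglial markers were at 1259.8 to 1379 in WT and 1214 to 1254 in HAR123-KO, with Cx3cr1 at -0.17 ± 0.10 and none of 12 called (1 lower at an unadjusted p under 0.05 and 0 called by edgeR). Neuronal markers were at 30527 to 31168 in WT and 30102 to 30515 in HAR123-KO, with Rbfox3 at 0.032 ± 0.042, 1 of 12 called lower (Slc17a7), and 6 above and 6 below 0 on the log2 scale (median 0.0027). At an unadjusted p under 0.05, 3 were lower and 1 higher, and edgeR called 2, Slc17a7 and Stmn2. Stmn2 was lower in every HAR123-KO library, at -0.16 ± 0.049 (adjusted p = 0.0572 in DESeq2 and 0.0211 in edgeR), and Gad2 higher in every one, at 0.12 ± 0.055 (adjusted p = 0.432, DESeq2). Without Slc17a7 the neuronal sums overlapped, at 26827 to 27553 in WT and 26655 to 27273 in HAR123-KO. The summed counts of astrocyte and endothelial markers were thus lower in every HAR123-KO library than in any WT library, and those of the mature members higher, whichever single gene was left out. The microglial sums were lower too but overlapped without any one of 6 of their 12 genes, and the neuronal sums without any one of 4.

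Peripheral myelin is made by Schwann cells, which share Mbp, Mag and Mal with oligodendrocytes, while Cntn2 is also made by neurons. Pmp2, a fatty acid-binding protein of peripheral myelin, had 0 counts in all 8 libraries. The 5 Schwann cell genes of the list, Pmp2 included, summed to 65.2 to 88.9 in WT and 63.8 to 84.0 in HAR123-KO. Fxyd1 made up most of this sum, and without it the sums were 22.5 to 25.7 in WT and 15.8 to 20.5 in HAR123-KO, lower in every HAR123-KO library. Most of that remainder was a single gene, Egr2, at 20.6 ± 0.42 in WT and 15.4 ± 2.13 in HAR123-KO. Egr2 was not called (adjusted p = 0.797, DESeq2). Ncmap was at 3.02 in WT and 1.95 in HAR123-KO, and Prx, the other way, at 0.563 and 1.20.

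**Figure D5:**
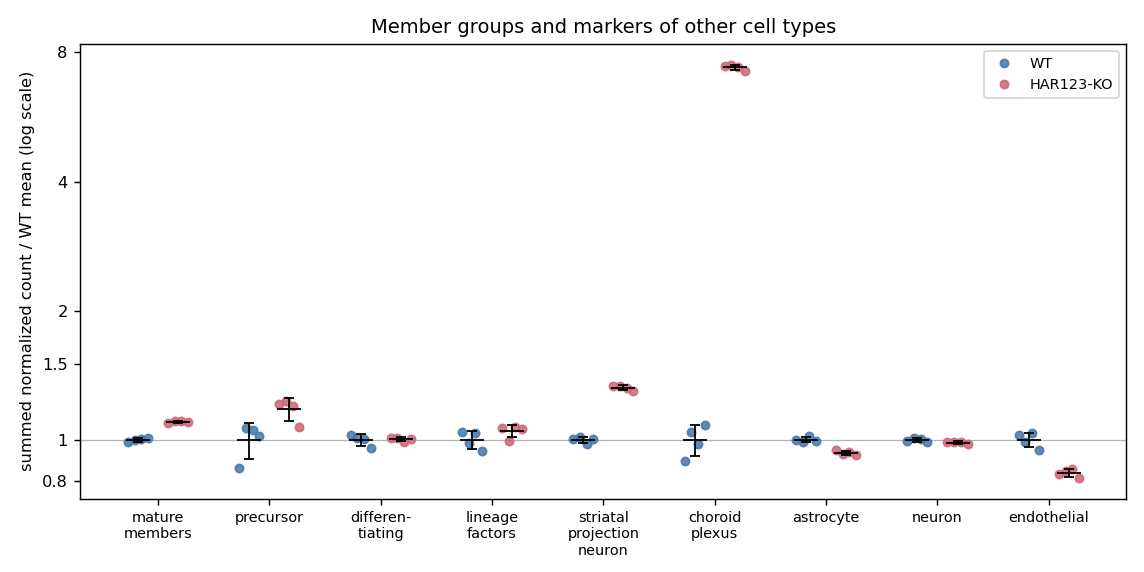
Summed normalized counts of member groups and of marker lists of other cell types in each library, divided by the WT mean, on a log axis, with mean and SD over 4 libraries per genotype. The mature members are 1.101 times the WT mean in HAR123-KO, striatal markers 1.32 times and choroid plexus markers 7.38 times. Most of the choroid plexus sum is Ttr.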

How the data were processed

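Frontal cortex RNA of 8 libraries was sequenced as paired ends from a directional, ribosome-depleted library kit. The authors aligned reads with STAR 2.5.2b to GRCm38 and deposited raw counts per gene, made with featureCounts (Subread) over the exons of an Ensembl annotation. Whether strand was used at counting, and how reads matching several genes were treated, is not given in the sources used here. The table holds 0 sample columns left unused. All 55536 identifiers were matched to GENCODE M21 of the same build for symbols and 1-based coordinates. Promoter windows are from RefSeq (GRCm38.p6).

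All genes were fitted together in DESeq2 1.42.0 (R 4.3.3) with a single genotype term, libraries were scaled by the median of ratios, and Wald p-values were adjusted by the Benjamini-Hochberg method over the 12758 genes that the independent filter (alpha 0.1) let through. A gene was called at an adjusted p under 0.05. Medians and counts of direction cover members whose mean reached 10 normalized counts. Alternatives were edgeR 4.0.16 (quasi-likelihood test), limma-voom (limma 3.58.1), TMM factors, library totals or protein-coding genes for size factors, the independent filter off, at least 10 counts required in 4 libraries, the replicate number as a block, and leaving out each library in turn, which made 16 alternative fits. An independent filter tuned to 0.05 and a minimum of 10 counts summed over all libraries were added after the data had been seen, making 18. Stricter limits (adjusted p under 0.01, absolute log2 fold change over 1) were also applied to the reported fit and are not counted among the 18. Scripts were tested on simulated data first. Within a genotype, pairs of libraries differed by more than sampling noise (chi-square per degree of freedom 1.21 to 1.30 over 12 pairs), so the 8 libraries were kept as separate. This cannot show that they come from separate animals, since repeated preparations of the same RNA could also exceed sampling noise. Counting error alone understates the error, since PCR copies were not tagged.

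The 36 genes, the other lists and the alternatives were chosen with earlier results of these data known. Given in full, by rule, are the called members and Pdgfra, Cspg4, Gpr17, Enpp6, Bcas1, Sox10, Olig1, Olig2, Myrf, Mbp, Mog, Mag, Mobp, Cnp, Enpp2 and Klk6, and the called genes among 41 other oligodendrocyte genes. Of other cell types, defining markers are named (Gfap, Aqp4, Cx3cr1, Cldn5, Ttr, Drd1, Drd2 and Rbfox3). Other genes were named after their values were seen. Some items are not reported here.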

Additional observations from a re-analysis of the deposited data

Results flagged for a closer look

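A single library stood apart from the other 3 of its genotype, by Dixon's test at the 95% level, in 5 of the 72 groups of 4 values that the 36 genes give, where chance alone flags about 1 in 20, or 3.6. Mog was lowest in WT replicate 4, at 153 normalized counts. Ermn, which encodes an actin-binding protein of late oligodendrocytes, was highest in HAR123-KO replicate 4, at 197. Gjb1, the connexin of oligodendrocyte gap junctions, was also highest in HAR123-KO replicate 4, at 38.3. Ugt8a was highest in HAR123-KO replicate 3, at 228, and Plekhh1 in HAR123-KO replicate 1, at 196. None of the 5 is a called gene.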

How the results depend on the processing

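Mbp and Cldn11 were called in 17 and 17 of 18 alternative fits, both missing only under the replicate block, Enpp2 in 18 and Cnp in 9. The number of called members was 3 without the independent filter and with a minimum of 10 counts in 4 libraries, 3 to 4 with 1 library left out, 5 with a minimum of 10 counts over all libraries and 0 when the stricter limits were applied to the reported fit. Past the study's fold limit as well were 1 member (Klk6) with that minimum over all libraries and 0 in the reported fit. Same-numbered libraries did not deviate together (r from -0.015 to 0.018 over 8794 genes), so the numbers give no pairing. Not every library correlated best with the one of its own number. A fit with the replicate block called 1 member, Enpp2, while the log2 fold changes of Mbp and Cldn11 were 0.19 (adjusted p = 0.350) and 0.28 (adjusted p = 1, DESeq2), close to those without it.

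Library totals moved the median of all genes to 0.037, that of the members to 0.15 and that of the mature members to 0.14, and turned 4 uncalled genes above 0: Gpr17 (0.025), Bcas1 (0.037), Mobp (0.0091) and Trf (0.030). With 1 library left out, the medians were 0.065 to 0.14 for the members, lowest without HAR123-KO replicate 4, and 0.099 to 0.14 for the mature members. Sign changes there were of uncalled genes, with ranges of -0.028 to 0.013 for Gpr17, -0.027 to 0.024 for Bcas1, -0.11 to 0.083 for Olig2, -0.018 to 0.017 for Mal, -0.15 to 0.0089 for Opalin, -0.021 to 0.16 for Gjb1, -0.050 to 0.025 for Trf, -0.013 to 0.12 for Gpr37 and -0.16 to 0.24 for S1pr5. Mal was at -8.8e-04 in edgeR, -0.0015 in limma-voom, -2.6e-04 with a minimum of 10 counts in 4 libraries and -4.3e-04 with size factors from protein-coding genes. The cause of these shifts was not tested. Of 645 alternative values of single members, 604 kept their direction and side of the threshold, 29 changed sign, 11 lost a call (Cnp, Mbp and Cldn11) and 1 gained one (Klk6). Members with a mean under 100 have SEs above 0.1, so shifts of the size seen for Mbp were not detectable in them. A mean over 100 was often not enough either: Pdgfra (0.19 ± 0.098), Sox10 (0.18 ± 0.12) and Plekhh1 (0.22 ± 0.10) had shifts of about that size or more and were not called.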

Other observations

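Within the precursor stage, ratios to Gpr17 were computed per library after the values had been seen. Pdgfra to Gpr17 was 0.714 to 1.15 in WT and 1.05 to 1.16 in HAR123-KO, and Cspg4 to Gpr17 was 0.328 to 0.470 in WT and 0.418 to 0.539 in HAR123-KO, overlapping ranges in both cases. In the further list, Gal3st1, the sulfotransferase that turns galactosylceramide into sulfatide, had a log2 fold change below 0. It had 46.2, 40.2, 47.4 and 49.2 normalized counts in WT and 30.7, 33.3, 31.7 and 35.1 in HAR123-KO, all HAR123-KO libraries being below all WT libraries, with a log2 fold change of -0.49 ± 0.21 and an adjusted p of 0.390 in DESeq2, so it was not called. It acts directly after Ugt8a, whose log2 fold change was -0.076 ± 0.088, in the making of sulfatide. Mbp against Mal, both of compact myelin, gave a ratio of 10.4 to 11.1 in WT and 11.9 to 12.5 in HAR123-KO, with no overlap.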
